A study of Mus musculus with 12 samples.

Results

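Cultured fibroblasts of the gut are told apart by proteins on their surface, and 9 genes for such proteins are described here: Cd34, Cd81, Ly6a, Pi16, Dpp4, Thy1, Pdpn, Cd44 and Cd24a. They were taken by gene symbol from a table of 24411 genes, and all 9 symbols were found. RNA sequencing had been done on cultured colonic myofibroblasts, contractile stromal cells isolated from the distal colon of C57BL/6 mice aged 16 weeks. The knockout mice lacked tumor necrosis factor receptor 1 (TNFR1-/-, 6 libraries, called knockout), and the controls were heterozygous (TNFR1-/+, 6 libraries), so both genotypes carry the mutant allele. All cells were untreated, had been amplified to passage 6 to 8, and were taken out of Matrigel, a basement membrane gel, on day 5. The labels do not say how many mice or cultures stand behind the 12 libraries, so p-values cover only the variation among these 12 samples, part of which may be technical.

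In the intact colon, fibroblasts form layers with different tasks. Those close to the crypt base, known as trophocytes, carry CD34 and CD81 and secrete R-spondins, which support stem cells. Fibroblasts around vessels, the adventitial or universal type, carry CD34 with SCA-1 (encoded by Ly6a), PI16 and DPP4. THY1 and podoplanin (Pdpn) mark fibroblasts broadly, podoplanin most of all in lymphoid stroma. CD44 is the main receptor for hyaluronan, a matrix sugar polymer, and CD24 is a small sialylated protein held in the membrane by a lipid anchor. Several of these proteins also occur on leukocytes, endothelium or epithelium, so none identifies a cell type alone.

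Total expected counts (reads assigned to genes by estimation) were 6543013 to 9937008 per knockout library and 11890729 to 16458689 per control library. The libraries were not evenly alike within a genotype. Knockout 5 and 6 stood apart from knockout 1 to 4, with rank correlations across genes of 0.926 to 0.927 against 0.989 to 0.997 within knockout 1 to 4. Control 6 likewise stood apart from control 1 to 5, at 0.952 to 0.954 against 0.996 to 0.998, and correlated at 0.968 to 0.976 with knockout 1 to 4. The difference of each tested marker is therefore also given without some of these 3 libraries. Tnfrsf1a, the gene targeted in the knockout, averaged 44.1 ± 2.32 CPM (counts scaled to a common library size) in knockout and 74.7 ± 10.1 CPM in control libraries (SD, n = 6 each), and control 6 had the lowest control value at 54.9 CPM. Col1a1, a chain of type I collagen, was at 1993 to 11420.3 CPM in knockout and 8073 to 13266.5 CPM in control libraries. Its lowest values, 1993 and 2102 CPM, were in knockout 5 and 6. Acta2, the smooth muscle actin that defines myofibroblasts, was at 2788 to 6647 CPM in knockout and 1460 to 3278 CPM in control libraries. These genes alone do not settle cell identity. Of the 10 fibroblast and myofibroblast markers, 3 were higher in the knockout, 4 lower and 3 not past the test described below. Across all tested genes, 21.4% were higher and 21.6% lower. Rn45s, ribosomal RNA left after selection of polyadenylated RNA, took 1.63 to 8.25% of knockout and 0.351 to 1.19% of control counts, with 7.01 and 8.25% in knockout 5 and 6; its part in the marker levels was not tested. In such bulk RNA, fewer cells of a type and less RNA per cell cannot be told apart.

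Cd24a and Cd44 rose in the knockout, by 9.35-fold and 3.93-fold. Pi16 fell, with a level 3.01-fold lower, but had few counts and met the count filter through its control values alone. Dpp4 was at the edge of detection in both groups, with 1 read over the 6 knockout libraries and 35 over the 6 controls. Cd34, Cd81, Ly6a, Thy1 and Pdpn did not pass the test, and 4 of these differed by more than 2-fold between knockout 1 to 4 and knockout 5 and 6. Of the 8 markers with enough counts to be tested, 2 rose, 1 fell and 5 did not pass (edgeR quasi-likelihood test over all genes, Benjamini-Hochberg adjusted p under 0.05). Across the 12146 genes tested, 43% passed, 21.4% higher and 21.6% lower, so 3 calls among 8 markers is close to the background. The groups did not overlap for those 3 markers, as for 23% of all tested genes. The median log2 difference of the 8 markers was 0.18, against 0.02 over all tested genes. Without knockout 5 and 6, 5 markers passed, where 52% of all genes did. Without control 6 as well all 8 passed, where 71.3% of all genes did. That last comparison sets 2 near-uniform sets against each other, in which genotype and set cannot be told apart.

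**Figure D1:**
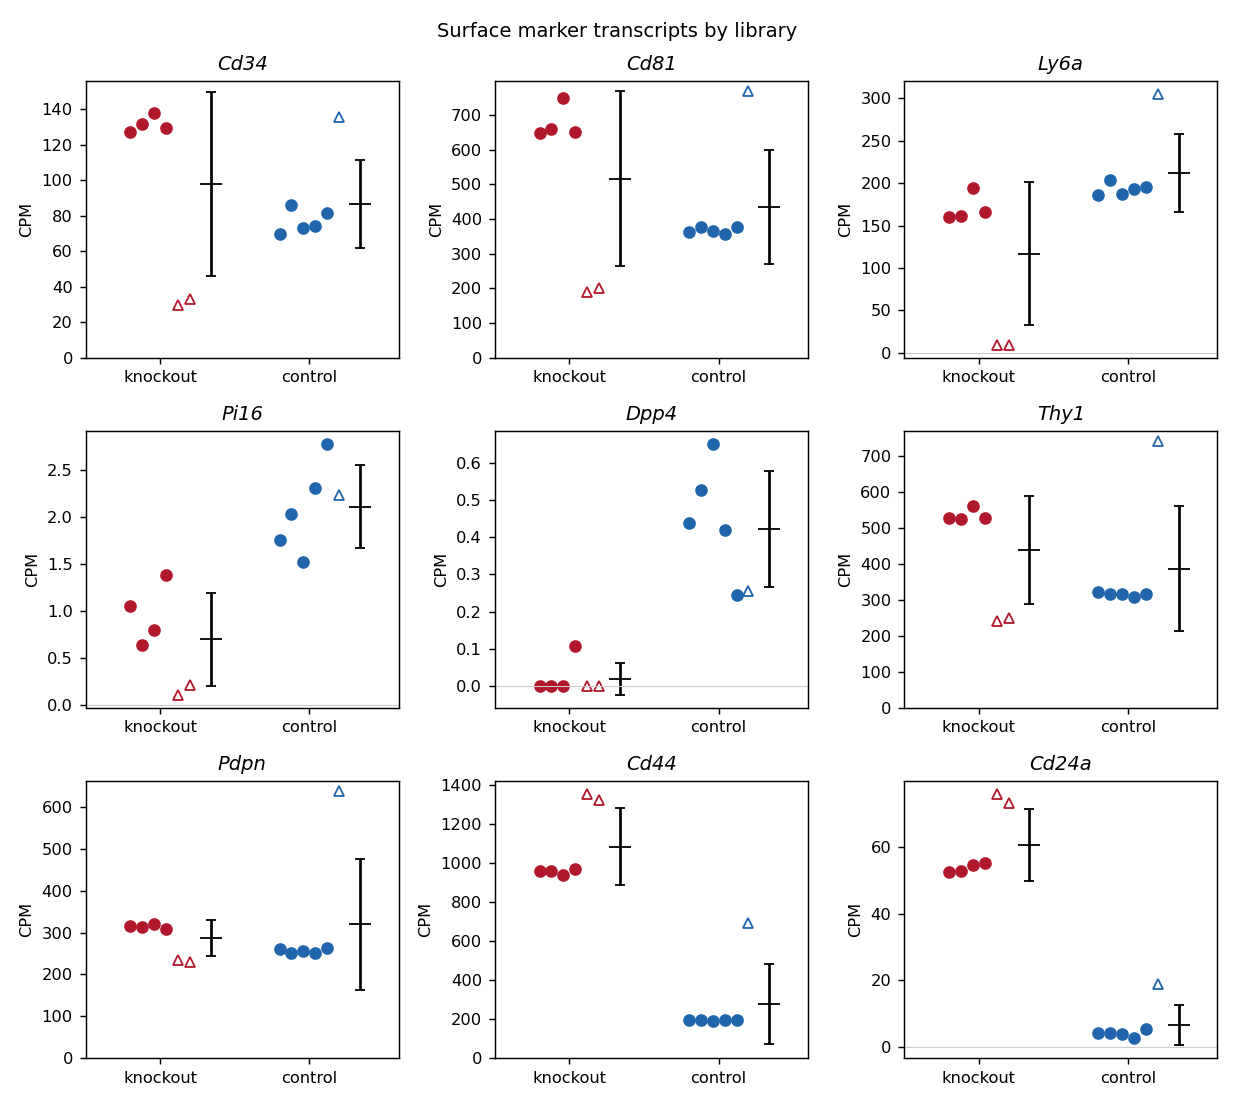
Level of each marker in CPM (y axis, linear, starting at or just below 0) in the 6 knockout libraries (red) and the 6 control libraries (blue). Open triangles mark knockout 5, knockout 6 and control 6, and black bars give the mean and SD of each group; Cd44 and Cd24a separate the groups, while for Cd34, Cd81, Thy1 and Pdpn knockout 5 and 6 are the lowest libraries and control 6 is the highest control.

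Cd34 and Cd81, which together define trophocytes, followed each other through the 12 libraries. Their promoters are shown because they had the closest patterns among the 8 tested markers. Each window runs from 250 bases before to 50 bases after the RefSeq start of the gene, 5′ to 3′ on the gene's strand, in build GRCm38.p6. The coordinates belong to the RefSeq table, since the build used for the counts is not known with certainty. The Cd34 window is chr1:194938571-194938870 on the plus strand and the Cd81 window is chr7:143052500-143052799 on the plus strand. Capitals mark matches on either strand to GGGCGG, the GC box bound by SP factors, or CCACCC, the CACCC box bound by KLF factors.
Cd34: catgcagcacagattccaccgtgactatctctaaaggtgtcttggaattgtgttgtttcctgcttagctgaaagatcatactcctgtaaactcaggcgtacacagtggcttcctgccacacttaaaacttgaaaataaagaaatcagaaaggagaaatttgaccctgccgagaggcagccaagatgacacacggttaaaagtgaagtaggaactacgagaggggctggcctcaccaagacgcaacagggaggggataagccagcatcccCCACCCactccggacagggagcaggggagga
Cd81: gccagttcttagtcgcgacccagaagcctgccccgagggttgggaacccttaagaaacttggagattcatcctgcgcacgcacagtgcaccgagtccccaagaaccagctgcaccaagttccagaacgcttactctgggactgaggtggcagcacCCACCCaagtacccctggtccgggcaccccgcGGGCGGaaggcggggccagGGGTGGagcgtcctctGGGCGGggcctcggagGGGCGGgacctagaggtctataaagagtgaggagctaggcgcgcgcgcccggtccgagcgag
The Cd34 window held 1 CACCC box and no GC box, and the Cd81 window held 2 CACCC boxes and 3 GC boxes, with no overlap between the motifs. Among all 32851 promoter windows of this length, 31.5% held a CACCC box and 35.7% a GC box, so both motifs are common.

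Cd34 encodes a sialomucin, a heavily glycosylated protein that binds selectins in other settings. Its levels were 127, 131.6, 137.8, 129.6, 29.5 and 32.8 CPM in knockout 1 to 6, against 69.9, 86.4, 73.1, 74.2, 81.5 and 135.9 CPM in control 1 to 6. The groups overlapped at both ends: knockout 1 to 4 were above control 1 to 5, knockout 5 and 6 were the lowest of all libraries, and control 6 was level with knockout 1 to 4. The log2 difference was 0.17 (SE 0.37; edgeR adjusted p = 0.737). Without knockout 5 and 6 it was 0.60 (SE 0.17; adjusted p = 0.012), and Cd34 then rose. Summed counts of knockout 1 to 4 were 4.20-fold those of knockout 5 and 6, a larger ratio than that between the genotype means, which was 1.13.

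Cd81 encodes a tetraspanin, a membrane protein that gathers other receptors into patches. It had 649.4, 660.3, 750.7, 651, 188.7 and 199.7 CPM in knockout 1 to 6, against 361.4, 375.8, 366.1, 357.3, 378.4 and 768 CPM in control 1 to 6. Knockout 1 to 4 were all above control 1 to 5 and knockout 5 and 6 were below every control, while control 6 was the highest library of all. The log2 difference was 0.25 (SE 0.36; edgeR adjusted p = 0.601), and 0.64 (SE 0.21; adjusted p = 0.0256) without knockout 5 and 6. The ratio of knockout 1 to 4 to control 1 to 5 was 1.83 for Cd81 and 1.70 for Cd34, and that of knockout 5 and 6 to control 1 to 5 was 0.529 and 0.405. In the GENCODE mouse annotation, exons of Cd34, Cd81, Pi16 and Dpp4 overlap a noncoding gene on the other strand. The libraries were strand-specific, but the strand setting of the counting is not given in the sources used here, so these counts may include reads of the overlapping gene.

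Ly6a, Pi16 and Dpp4 are the adventitial markers. Ly6a and Pi16 were lowest in knockout 5 and 6, whereas Dpp4 had no reads in any knockout library except knockout 4 and does not set these libraries apart. Ly6a encodes SCA-1, a lipid-anchored protein of the Ly6 family that interferon induces. It had 159.6, 161.2, 194.4, 166.4, 9.03 and 9.52 CPM in knockout 1 to 6, against 186.2, 204.2, 186.8, 193.2, 195.6 and 305.6 CPM in control 1 to 6. Knockout 3 lay among the controls, the other knockout libraries were below them, and knockout 5 and 6 were far below all others. The ratio of knockout 1 to 4 to knockout 5 and 6 was 18.2, the largest such ratio among the 8 tested markers. The log2 difference was -0.86 (SE 0.62; edgeR adjusted p = 0.282), and -0.32 (SE 0.14; adjusted p = 0.0832) without knockout 5 and 6. Ly6a lies among close relatives in the genome, and 8 of its 12 deposited values were not whole, by at most 0.17 of a read. Whether reads were shared with those relatives was not tested, so its counts are given as uncertain.

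Pi16 encodes peptidase inhibitor 16, a secreted and membrane-attached member of the CAP family that marks adventitial fibroblasts in mouse tissues. It was at the edge of detection, with 1 to 13 counts per knockout library and 21 to 35 per control library. Its levels were 1.05, 0.642, 0.791, 1.38, 0.104 and 0.207 CPM in knockout 1 to 6, against 1.75, 2.03, 1.52, 2.31, 2.77 and 2.23 CPM in control 1 to 6. Every knockout library was below every control, and knockout 5 and 6 were again the lowest. The log2 difference was -1.59 (SE 0.40; edgeR adjusted p = 0.00681), and -1.08 (SE 0.26; adjusted p = 0.00522) without knockout 5 and 6. Only 2 knockout libraries reached the level the count filter asks for, against all 6 controls, so Pi16 entered the test through its control values alone.

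Dpp4 encodes CD26, a surface peptidase that trims hormones and chemokines and marks progenitor fibroblasts of skin and fat in mice. It had too few counts for the fit across genes. Over the 6 knockout libraries 1 read was found, in knockout 4, against 35 reads over the 6 controls, with 3 to 9 in each. The ratio of the depth-scaled sums was 0.0453 (95% exact binomial interval 0.00112 to 0.269, covering counting error only). Mean levels were 0.0177 CPM in knockout and 0.423 CPM in control libraries, a difference of -0.405 CPM (two-sided exact permutation test, n = 6 each, p = 0.00216, the smallest this design allows). A count of 0 allows up to 3 reads, so the 5 knockout libraries at 0 do not show absence at this depth.

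Thy1 and Pdpn, the broad fibroblast markers, were well expressed in every library and did not pass the test between the genotypes. Thy1 encodes CD90, a lipid-anchored protein of the immunoglobulin superfamily that binds integrins. It had 528.9, 524.3, 560.5, 528.6, 240.4 and 248.9 CPM in knockout 1 to 6, against 321.8, 316.8, 316.7, 307.6, 316.8 and 743.2 CPM in control 1 to 6. Knockout 1 to 4 lay between control 1 to 5 and control 6, and knockout 5 and 6 below all controls. The log2 difference was 0.18 (SE 0.29; edgeR adjusted p = 0.644), and 0.47 (SE 0.24; adjusted p = 0.128) without knockout 5 and 6.

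Pdpn encodes podoplanin, a mucin-like protein that activates the platelet receptor CLEC-2 and loosens fibroblast contraction when bound by it. It had 316.7, 314.4, 319.7, 308.8, 235.4 and 228.5 CPM in knockout 1 to 6, against 260, 252.2, 255.1, 250.6, 262.4 and 638.4 CPM in control 1 to 6. The knockout values were the most even of all 9 markers, with a coefficient of variation of 15%, while control 6 stood at 2.50 times control 1 to 5. The log2 difference was -0.16 (SE 0.24; edgeR adjusted p = 0.624). Its sign turned to 0.17 (SE 0.10, edgeR adjusted p = 0.192) without control 6. With knockout 5 and 6 left out as well, the log2 difference of Pdpn was 0.30 (SE 0.03, edgeR adjusted p = 1.24e-06). Only knockout 1 to 4 and control 1 to 5 remain in that fit, and 71.3% of all genes passed it. Its p-value covers only the small spread within these sets, so no rise with genotype is read from it. On counts summed over the 4 sets the log2 difference was -0.70 (SE 0.53, edgeR adjusted p = 0.694).

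**Figure D2:**
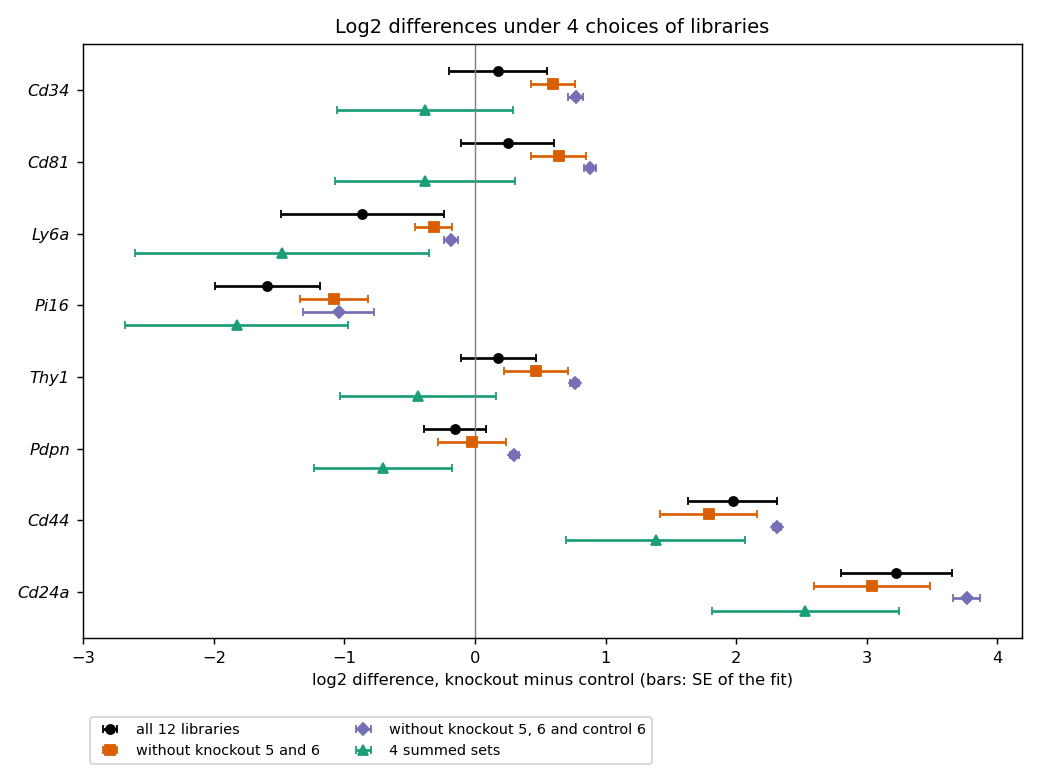
Log2 difference of each tested marker, knockout minus control (x axis), from edgeR fits over all genes with all 12 libraries, without knockout 5 and 6, without these and control 6, and on counts summed over the 4 sets of libraries; horizontal bars are the SE of the fit. Cd44 and Cd24a lie to the right of 0 and Pi16 to the left under each choice, whereas Cd34, Cd81, Thy1 and Pdpn fall on both sides.

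Cd44 and Cd24a were the markers that rose. The promoter of Cd44 is shown because it is the more highly counted of the 2 and its window is in the table; it is chr2:102901616-102901915 on the minus strand, marked in the same way.
Cd44: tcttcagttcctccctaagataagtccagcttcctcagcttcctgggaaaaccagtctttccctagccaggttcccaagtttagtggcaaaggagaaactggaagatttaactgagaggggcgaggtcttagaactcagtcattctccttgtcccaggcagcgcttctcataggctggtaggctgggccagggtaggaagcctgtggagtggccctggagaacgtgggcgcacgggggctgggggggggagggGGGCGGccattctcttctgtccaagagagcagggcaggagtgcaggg
It held 1 GC box and no CACCC box. Windows were at hand for 6 of the 9 markers (Cd34, Cd81, Cd44, Pdpn, Pi16 and Dpp4), and none of the 6 held TGANTCA (an AP-1 site, in 7.81% of all windows) or TTCNNNGAA (a STAT site, in 8.3%) on either strand, which says only that these letters are not in these windows.

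Cd44 had 958.5, 962.5, 938.3, 970.3, 1357 and 1327 CPM in knockout 1 to 6, against 194.4, 192.6, 187.6, 193, 197 and 694 CPM in control 1 to 6. All knockout libraries were above all controls, but control 6 lay much nearer to the knockout libraries than to the other controls. The mean was 1086 ± 199 CPM in knockout and 276.4 ± 204.6 CPM in control libraries (SD, n = 6 each), a log2 difference of 1.97 (SE 0.34; edgeR adjusted p = 0.000643). Knockout 1 to 4 were 4.97-fold above control 1 to 5 but only 1.38-fold above control 6, and knockout 5 and 6 were 6.96-fold and 1.93-fold above them. Without knockout 5 and 6 the log2 difference was 1.79 (SE 0.37; adjusted p = 0.00235), and it was 2.49 (SE 0.12; adjusted p = 3.33e-08) without control 6. Counts per gene do not show which of the many splice forms of CD44 was made.

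Cd24a had 52.5, 52.9, 54.7, 55.4, 76 and 73.3 CPM in knockout 1 to 6, against 4.09, 4.22, 3.84, 2.59, 5.22 and 18.7 CPM in control 1 to 6. Again the groups did not overlap, and control 6 was 4.73-fold above control 1 to 5. The mean was 60.8 ± 10.8 CPM in knockout and 6.44 ± 6.06 CPM in control libraries (SD, n = 6 each), a log2 difference of 3.23 (SE 0.42; edgeR adjusted p = 0.000111). Without knockout 5 and 6 it was 3.04 (SE 0.45; adjusted p = 0.000312), and without control 6 it was 3.93 (SE 0.19; adjusted p = 2.19e-08). Each knockout set was at least 2.88-fold above each control set. On counts summed over the 4 sets, 2 against 2, the calls on Cd24a, Pi16 and Cd44 ended, with edgeR adjusted p of 0.613, 0.613 and 0.620. CD24 is also an epithelial protein, and no library had more than 1 read of the defining epithelial markers Epcam or Cdh1. The 9 epithelial markers summed to 14.9 to 23.3 CPM in knockout and 7.49 to 20.2 CPM in control libraries. Most of that sum was keratins: Krt19 averaged 10.7 ± 4.32 CPM in knockout and 7.33 ± 1.85 CPM in control libraries, and Krt20 5.20 ± 0.772 CPM in knockout and 1.94 ± 2.67 CPM in control libraries (SD, n = 6 each), and neither passed the test. Their part in the Cd24a level was not tested.

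Markers of other cells that carry these proteins were also measured. Leukocytes carry CD44 and mouse T cells THY1. The 8 leukocyte and macrophage markers summed to 35.6 to 50.9 CPM in knockout and 73.9 to 123.7 CPM in control libraries. Of the 8, 6 were lower in the knockout and 2 not past the test, where 21.6% of all tested genes were lower. Some of the 6 were near the floor: Itgam, Adgre1, Tyrobp and Fcgr3 had at most 10, 13, 19 and 20 counts in any knockout library. Each had knockout libraries below the 0.916 CPM that the count filter asks for, so these genes entered the test through their control values. The 6 of 8 can therefore not be read against the 21.6%. Of the 7 T cell markers Cd3e, Cd3g and Cd2 were at 0 in all libraries, and Lck, a kinase of T cells, was at 0.599 ± 0.507 CPM in knockout and 4.98 ± 2.32 CPM in control libraries (SD, n = 6 each). The groups overlapped for Lck: control 6 had 0.445 CPM and control 1 to 5 had 5.90 CPM, against 1.19 CPM in knockout 5 and 6. Endothelium carries CD34, and its 8 markers summed to 5.28 to 9.62 CPM in knockout and 6.85 to 10.9 CPM in control libraries, with Cldn5 at 0 and Pecam1 at no more than 10 counts. Lymphatic endothelium carries podoplanin; of its 4 markers Ccl21a was at 0 and Prox1 at no more than 10 counts, and the sum was 9.33 to 38.2 CPM in knockout and 7.11 to 13.5 CPM in control libraries. Nearly all of it was Flt4, a receptor for lymphatic growth factors. Flt4 rose to 19.2 ± 14.2 CPM in knockout against 7.77 ± 2.54 CPM in control libraries (SD, n = 6 each, edgeR adjusted p = 0.0223), but the groups overlapped. It was at 37.5 CPM in knockout 5 and 6 and 10.2 CPM in knockout 1 to 4, against 12.7 CPM in control 6. The part of such cells in the marker levels was not tested.

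Set side by side over the 12 libraries, Cd34, Cd81, Thy1 and Pdpn lay close together, and Cd44 and Cd24a lay apart from the other markers. Likeness was measured as the root mean square difference of log2 CPM after each gene was centred on its own mean, so that 0 means identical patterns. Cd34 and Cd81 were closest at 0.15, followed by Cd81 and Thy1 at 0.23 and by Thy1 and Pdpn at 0.26. Cd34 and Pdpn were at 0.57. Cd24a and Cd44 were nearest to each other at 0.71, and the next nearest to both was Thy1, at 1.78 from Cd24a and 1.14 from Cd44. Pi16 was nearest to Cd34 at 0.85, and Ly6a to Pi16 at 0.87. The markers farthest apart were Cd24a and Ly6a at 3.06. These distances describe 12 libraries that fall into 4 sets, and genes that follow the sets come out as alike.

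**Figure D3:**
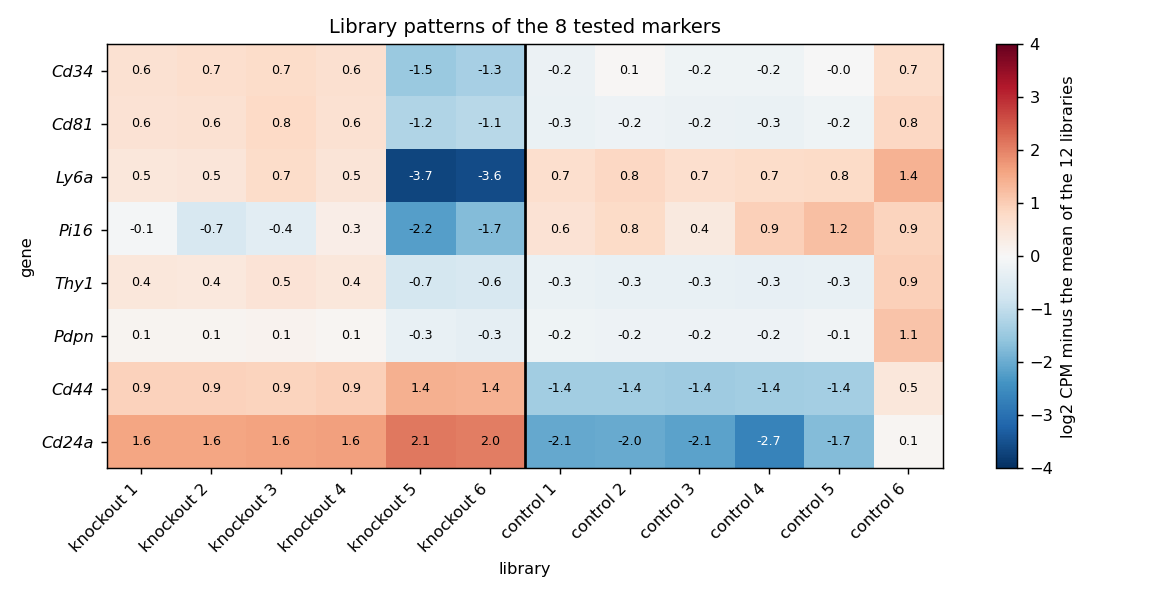
Log2 CPM of the 8 tested markers (rows) in each library (columns, knockout left of the line and control right of it), minus the mean of the gene over the 12 libraries; red is above and blue below that mean, and the numbers are the plotted values. Knockout 5 and 6 are the lowest columns for all markers except Cd44 and Cd24a, and control 6 is above control 1 to 5 for all but Pi16.

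Among 10386 other genes, those most like the markers were named by the same measure. The nearest to Cd34 were Prnp and Pbxip1 (0.10 and 0.11), and to Cd81 Parp3 and Cdkn2a (0.10 each). Thy1 was nearest to St5 and Pmp22 (0.05 and 0.06) and Pdpn to Ppap2b and Emilin2 (0.08 each). Ly6a was nearest to Iigp1 and Stat2 (0.37 and 0.40), an interferon-induced GTPase and a transcription factor of the interferon response, and Pi16 to Ednra and Cped1 (0.24 and 0.28). Gpr149 was close to Cd24a at 0.36 and Ddah1 to Cd44 at 0.12. The median distance of a marker to all genes searched was 0.51 to 1.89.

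All 8 tested markers varied more than most genes within the genotypes. Their standard errors of the log2 difference ran from 0.24 to 0.62, all above the median of 0.16 over all tested genes, and 6 of the 8 were above its 90th percentile of 0.34. For Cd34, Cd81, Ly6a and Thy1 the ratio between the knockout sets was 4.20, 3.46, 18.2 and 2.18, against 1.13, 1.19, 1.82 and 1.13 between the genotype means. For Pi16, which passed the test, the ratio between the knockout sets was likewise the larger one, at 6.42 against 3.02 between the genotype means. That 6.42 is uncertain, since knockout 5 and 6 had only 1 and 2 counts of Pi16. For Pdpn the ratio between the control sets, 2.50, was the larger one. For Cd44 and Cd24a the ratio between the genotype means, 3.93 and 9.44, exceeded the ratios between sets of the same genotype, of which the largest were 3.60 and 4.73.

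Genes related to the markers by family or binding partner, or as markers of the same subtypes, were counted in 10 lists. The counts are read against the 21.4% of all tested genes that rose and the 21.6% that fell, and no list was tested as a whole. Counts without some libraries have another background. Without knockout 5 and 6, 3055 of 12471 genes rose and 3433 fell. Without control 6 as well, 4319 of 12382 rose and 4508 fell. In the hyaluronan list, which holds the enzymes and partners around CD44, 6 of 11 tested genes rose, 1 fell and 4 did not pass, with a median log2 difference of 0.55. Tmem2, a cell surface hyaluronidase, rose to 58 CPM in knockout, against 21.3 CPM in control libraries (log2 difference 1.44, SE 0.18; edgeR adjusted p = 7.37e-05). Spp1, osteopontin, which also binds CD44, was the member that fell, to 388.4 CPM in knockout against 1773 CPM in control libraries (-2.19, SE 0.22; adjusted p = 2.33e-05).

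Of the tetraspanins and partners of CD81, 9 of 23 were lower, 3 higher and 11 not past the test (median -0.22). Of 24 tested without knockout 5 and 6, 10 were lower and 7 higher, and without control 6 as well 13 were lower and 8 higher. Across all genes, 52% passed without knockout 5 and 6 and 71.3% without control 6 as well. Tspan2 was the tetraspanin with the smallest adjusted p and rose to 49.3 CPM in knockout against 7.74 CPM in control libraries, and Tspan9 fell to 77.6 CPM against 128.2 CPM. Among peptidases related to DPP4, 2 of 8 fell, 1 rose and 5 did not pass (median 0.08; 2 lower and 4 higher without knockout 5 and 6). Fap, the fibroblast activation protein and the closest relative of DPP4, fell to 8.42 ± 1.15 CPM in knockout against 22.4 ± 2.16 CPM in control libraries (SD, n = 6 each), a log2 difference of -1.41 (SE 0.11; edgeR adjusted p = 4.98e-06). It varied little within a genotype: knockout 1 to 4 had 8.77 CPM and knockout 5 and 6 had 7.82 CPM, against 23 CPM for control 1 to 5 and 19.1 CPM for control 6. Prepl, another peptidase of this class, rose to 84.4 CPM in knockout against 40.4 CPM in control libraries. The groups overlapped for Prepl, with 56.4 CPM in knockout 5 and 6 against 70.1 CPM in control 6.

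Of the Ly6 and urokinase receptor family, 5 of 19 genes in the table were tested, with 2 higher, 1 lower and 2 not past (median 0.13; 4 higher without knockout 5 and 6 and control 6). Ly6e fell to 119.2 CPM in knockout against 319.7 CPM in control libraries, with knockout 1 to 4 at 123.5 CPM and knockout 5 and 6 at 108.7 CPM, without the gap that Ly6a showed between these sets. Ly6c1, named after its values were seen, did show it: knockout 1 to 4 had 13.3 CPM and knockout 5 and 6 had 0.933 CPM, against 10.5 CPM in control 1 to 5 and 27.3 CPM in control 6, and did not pass the test (log2 difference -0.54, SE 0.59; edgeR adjusted p = 0.479). Plaur, the urokinase receptor, rose to 134.5 CPM in knockout against 36.9 CPM in control libraries. The 3 tested CAP family relatives of PI16 gave 2 higher and 1 lower (median 0.57). Glipr1 was at 78.6 CPM and Glipr2 at 181.5 CPM in knockout, against 26.4 and 122.4 CPM in control libraries. For Glipr1 the groups overlapped, with 45.3 CPM in knockout 5 and 6 against 54.9 CPM in control 6.

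Of the sialomucins and binding partners of CD34, CD24, THY1 and podoplanin, 3 of 10 tested genes rose, 4 fell and 3 did not pass (median -0.26). Siglecg, the receptor for CD24 in mice, rose to 62.6 ± 7.97 CPM in knockout against 18.8 ± 6.19 CPM in control libraries (SD, n = 6 each), a log2 difference of 1.73 (SE 0.18; edgeR adjusted p = 2.56e-05) in the same direction as Cd24a. Itgb2, a leukocyte integrin chain, fell to 1.46 CPM in knockout against 7.40 CPM in control libraries. Clec1b, the podoplanin receptor, was at 0 in all libraries.

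**Figure D4:**
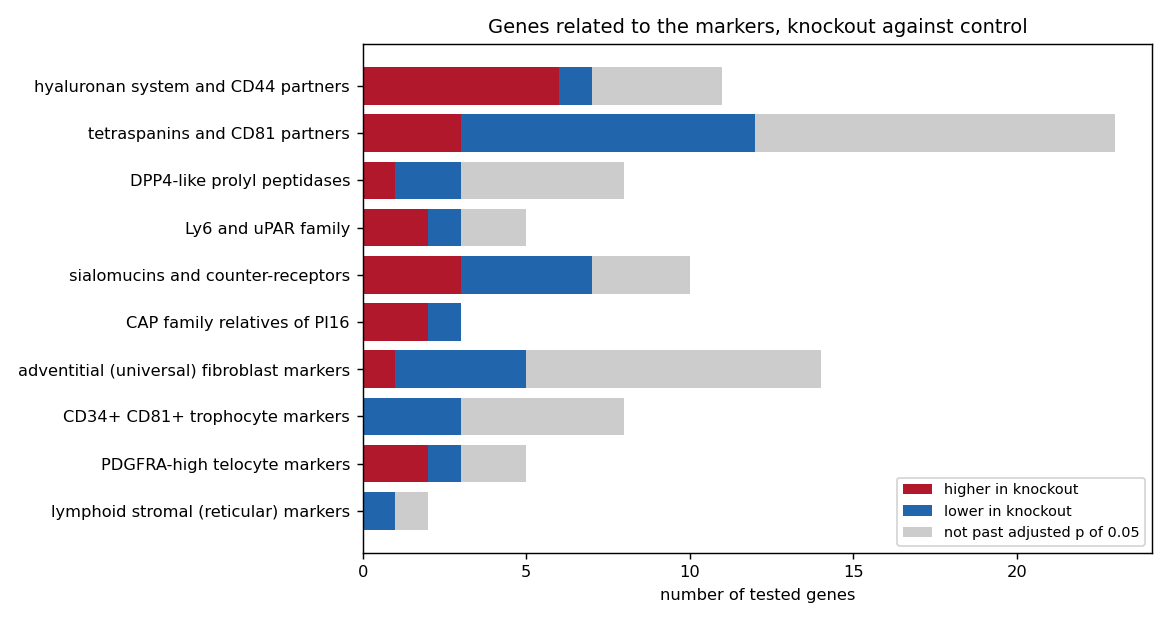
Number of tested genes (x axis) in each of 10 lists of genes related to the surface markers that were higher in knockout (red), lower in knockout (blue) or not past an adjusted p of 0.05 (grey). The hyaluronan list has 6 of 11 genes higher and the tetraspanin list 9 of 23 lower, where 21.4% of all tested genes were higher and 21.6% lower.

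Other markers of the same fibroblast subtypes moved in part. Their counts without some libraries are read against 52% of all genes passing without knockout 5 and 6, and 71.3% without control 6 as well. Of 14 tested adventitial markers, 4 fell while 1 rose and 9 missed the threshold (median 0.00; 4 lower and 7 higher without knockout 5 and 6 and control 6). Col15a1, a collagen of basement membrane zones, fell to 26.2 CPM in knockout against 150.4 CPM in control libraries, and Gpx3, a secreted glutathione peroxidase, to 62 CPM against 118.1 CPM. Of 8 tested trophocyte markers 3 fell and 5 did not pass (median -0.30); without knockout 5 and 6 the counts were 4 lower and 2 higher of 9, and without control 6 as well 4 lower and 5 higher. C3, the central complement protein, fell to 4.99 CPM in knockout against 43.1 CPM in control libraries and the Wnt inhibitor Sfrp1 to 36.4 CPM against 213.9 CPM. Among 5 telocyte markers, 2 rose while 1 fell and 2 missed the threshold (median 0.46). Wnt5a rose to 83.6 CPM in knockout against 45.9 CPM in control libraries, and the receptor Pdgfra fell to 107.3 CPM against 194.7 CPM. The lymphoid stromal list had 2 tested genes, of which Ltbr, the lymphotoxin receptor, fell to 117.1 CPM in knockout against 151.7 CPM in control libraries, and the other did not pass (median 0.19). The groups overlapped for Ltbr, with a knockout maximum of 143.6 CPM and a control minimum of 142.3 CPM.

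Some markers of contractile neighbours were also higher in the knockout, against the same background of 21.4%. Smooth muscle markers gave 4 of 6 higher and 2 not past, with Lmod1 at 194.5 CPM in knockout against 48.4 CPM in control libraries and Actg2 at 904.9 CPM in knockout against 347.1 CPM in control libraries. Pericyte markers gave 2 of 5 higher and 3 not past, with Mcam at 184.3 CPM in knockout against 44.4 CPM in control libraries and Cspg4 at 113.7 CPM in knockout against 66 CPM in control libraries. The groups overlapped for Actg2 and Cspg4: knockout 5 and 6 had 451.5 CPM of Actg2 and 72.8 CPM of Cspg4, against 519.1 and 98.5 CPM in control 6. Fibroblast and myofibroblast markers gave 3 of 10 higher, 4 lower and 3 not past, with the small proteoglycans Dcn at 190.9 CPM in knockout against 621 CPM in control libraries and Lum at 6.95 CPM in knockout against 24.9 CPM in control libraries. The part of these shifts in the levels of the surface markers was not tested.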

How the data were processed

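Expected counts per gene for 12 libraries were deposited by the authors; RSEM 1.2.15, Bowtie2 2.1.0 and a human build are named in the submitters' processing notes, while the rows are mouse symbols, so the build is uncertain. Polyadenylated RNA and dUTP strand marking are given in the labels' protocols. The expected counts were rounded to whole numbers. Groups came from the sample titles, and each column matched a single title.

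Knockout was tested against control over all 12 libraries in edgeR 4.0.16 (R 4.3.3) by the quasi-likelihood test (genotype only, filterByExpr with a minimum count of 10 and a minimum total of 15, trimmed mean of M-values scaling, Benjamini-Hochberg over 12146 genes, threshold 0.05). CPM use the scaled library sizes. Log2 CPM for patterns used a prior count of 2 and the search was limited to genes whose mean was 2 or more on that scale. The scripts were tested on simulated data. Dpp4, below the filter, had an exact permutation test over 924 splits.

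Alternatives were other scalings, filters and tests (DESeq2 1.42.0, limma 3.58.1 voom), a block for the replicate number, and libraries left out or summed; counts in the related lists without the outlying libraries were added after seeing the data. The markers, lists and sets of libraries were chosen with earlier results of these data known. Named genes were all markers, at most 2 called genes with the smallest adjusted p from each list, and the 2 genes most like each tested marker, passing over predicted genes; a few genes that this rule or the lists include are not reported here; the sets of libraries are not groups of the study. Of the list symbols, Ly6g was not matched, and Emr1 was matched as Adgre1. Depth limits Dpp4 and Pi16 most.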

Additional observations from a re-analysis of the deposited data

Results flagged for a closer look

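In 9 of the 20 groups of 6 values examined (9 markers and Tnfrsf1a, 2 genotypes each), 1 library lay far from the others by Dixon's test. Its rate of about 1 in 20 by chance is for independent, normally spread groups. Several of these genes share a pattern over the libraries, so the flags are not separate results and their number cannot be set against that rate. In 8 of the 9 groups the flagged library was control 6. That library was the highest control for Cd34 (135.9 CPM), Cd81 (768 CPM), Cd24a (18.7 CPM), Ly6a (305.6 CPM), Thy1 (743.2 CPM), Pdpn (638.4 CPM) and Cd44 (694 CPM), and the lowest control for Tnfrsf1a (54.9 CPM). The last was Dpp4 in knockout 4, at 0.106 CPM, which is a single read where the other knockout libraries had 0. Knockout 5 and 6 cannot be picked out in this way, since they lie together. Control 6 was also the deepest library, at 16458689 counts.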

How the results depend on the processing

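The calls on Cd24a, Cd44 and Pi16 held in all 12 fits with a library left out (3 markers called each time; 4432 to 6069 genes called in all, 2148 to 3092 of them higher and 2270 to 2977 lower, against 5219, 2597 and 2622 with all libraries) and under the other scalings, filters and tests run; with no filter Dpp4 passed as well, and 4 markers were called. Pi16 met the count filter through its control values alone. Leaving out 1 library always keeps knockout 5 or knockout 6 in the fit, so those 12 fits cannot remove that set. Without knockout 5 and 6, 5 markers were called, Cd34 and Cd81 being added. Without control 6 as well, 8 markers and 8827 genes were called, 4319 higher and 4508 lower. Of all genes tested, 52% were called without knockout 5 and 6 and 71.3% without control 6 as well. On counts summed over the 4 sets, 2 against 2, the edgeR test called 0 genes, 0 higher and 0 lower, and 0 markers, with 1047 of 13132 genes at an unadjusted p under 0.05. There the sign turned for Cd34 (-0.38), Cd81 (-0.38) and Thy1 (-0.44), and Cd24a (2.53), Cd44 (1.38) and Pi16 (-1.82) kept theirs. The sign also turned for Cd34 with limma-voom (-0.065), and for Pdpn without control 6 (0.17; -0.22 to 0.17 over the fits with a library left out) and without knockout 5 and 6 and control 6 (0.30); the cause was not tested. For Dpp4 the difference ran from -0.440 to -0.358 CPM over its alternatives, with exact permutation p of 0.00216 to 0.0159.

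With the replicate block, 3974 genes were called, 1867 higher and 2107 lower, and the same number of markers, 3. Same-numbered libraries of the 2 genotypes did not deviate together (correlations -0.364 to 0.184, and 0 of 6 correlated best with its own number). Knockout 1 to 4 each correlated best with control 6, so the libraries that stand apart weigh heavily in these deviations. The check therefore cannot decide whether the numbers pair the samples.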

Other observations

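Cemip and Has2, named after their values were seen, are the secreted hyaluronidase-like protein and the main hyaluronan synthase of fibroblasts. For Cemip, knockout 1 to 4 had 364.3 CPM and knockout 5 and 6 had 15.9 CPM, against 6.03 CPM in control 1 to 5 and 239.8 CPM in control 6, so it set control 6 beside knockout 1 to 4 and did not pass the test over all libraries (log2 difference 2.44; edgeR adjusted p = 0.117). Has2 rose, to 122.5 ± 119.1 CPM in knockout against 15.9 ± 10.2 CPM in control libraries (SD, n = 6 each), a log2 difference of 2.94 (SE 0.61; edgeR adjusted p = 0.00224). Its knockout values ran from 42.6 to 288.6 CPM, with a median of 48.3 CPM, and its control values from 10.9 to 36.6 CPM.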
